A study of Saccharomyces cerevisiae with 6 samples.

Results

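The promoters of the 5 yeast genes for isoleucine and valine synthesis, ILV1, ILV2, ILV3, ILV5 and ILV6, were examined in 6 transposon calling cards libraries, of which the Leu3 library is the one whose TF is known for these genes. A promoter was taken as the 1 kb (1000 bp) upstream of the start codon, and all 5 genes were found among 6002 nuclear protein-coding genes given the same window. The members were named by their place in the pathway, with earlier results of these data known. In calling cards, a TF is fused at its C-terminus to Sir4, which draws the Ty5 retrotransposon into DNA near where the TF binds. A single insertion does not by itself show a visit of the TF, as all 6 libraries held insertions upstream of ILV5. The TFs were Leu3, Eds1, Ino4, Rgt1, Sfp1 and Zap1, with 1 library each and no replicate. All 6 libraries came from strain BY4741 with genotype sir4D, in which the fused protein was carried on a plasmid and Ty5, marked with HIS3, was induced with galactose from the GAL1/10 promoter. Each library was grown from a single clone, and no library without a TF is compared here, so every comparison is of one library with the others. The coding region of SIR4 held 0 insertions in the Leu3, Ino4, Rgt1, Sfp1 and Zap1 libraries and 2 in the Eds1 library. That of URA3, also deleted in BY4741, held 1 in the Eds1 library. The coding region of ILV1, which is not deleted, held 0 in the Leu3 library too, so such counts cannot check a deletion.

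Isoleucine and valine are built by parallel reactions in the mitochondrion, largely with the same enzymes. Ilv1, threonine deaminase, opens the isoleucine branch by turning threonine into 2-ketobutyrate. Ilv2 is the catalytic subunit of acetolactate synthase and Ilv6 its regulatory subunit, which carries the feedback inhibition by valine. Ilv5, the acetohydroxyacid reductoisomerase, and Ilv3, the dihydroxyacid dehydratase, follow in both branches, and the last ketoacid of the valine branch is also where leucine synthesis starts. Leu3 is a zinc cluster TF of branched-chain amino acid genes that activates when bound by alpha-isopropylmalate, an intermediate of leucine synthesis. Ino4 is known for phospholipid genes, Rgt1 for glucose transporters, Sfp1 for ribosomal protein and ribosome biogenesis genes and Zap1 for zinc homeostasis.

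The libraries differed in depth. The Leu3 library held 75550 insertions, and the others between 15951 (Ino4) and 35758 (Sfp1), so counts are also given per 10000 insertions of the library. The median window of all genes held 5 insertions in the Leu3 library and between 1 (Rgt1, Zap1) and 4 (Sfp1) in the other 5. The share of windows without any insertion was 6.36% in the Leu3 library and between 9.68% (Sfp1) and 41.6% (Rgt1) in the others. Intervals are exact 95% intervals, and a count of 0 is instead given with the level that 3 insertions would have. These limits and the p-values cover counting error only, not the variation between clones or cultures. They also take every listed insertion as independent. If the same insertion is listed more than once, the intervals are too narrow and the p-values too small.

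Insertions of the Leu3 library were dense upstream of ILV5, ILV2 and ILV3. Upstream of ILV6, whose product is a subunit of the same shared enzyme as Ilv2, they were far fewer. The ILV6 window held 1.2 times the median window of the Leu3 library and 0.445 times the mean window. Leu3 insertions were missing upstream of ILV1. Together the 5 promoters held 155.5 insertions per 10000 in the Leu3 library (1175 in all), against 24.9 in Sfp1, 18.7 in Zap1, 15.0 in Eds1, 10.0 in Ino4 and 4.03 in Rgt1.

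ILV5 (YLR355C, chromosome XII) carried the most. Its promoter held 721 insertions in the Leu3 library, against 22 in Eds1, 5 in Ino4, 3 in Rgt1, 18 in Sfp1 and 17 in Zap1. Per 10000 insertions this was 95.4 (88.6 to 103) in the Leu3 library, against 7.16 in Eds1, 3.13 in Ino4, 1.01 in Rgt1, 5.03 in Sfp1 and 10.6 in Zap1. The Leu3 interval lay above those of all 5 other libraries, and that of Zap1 came nearest.

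ILV2 (YMR108W, chromosome XIII), for the catalytic subunit of acetolactate synthase, held 257 insertions in the Leu3 library, against 13 in Eds1, 5 in Ino4, 6 in Rgt1, 36 in Sfp1 and 6 in Zap1. The Leu3 level was 34.0 per 10000 (30.0 to 38.4), against 4.23 in Eds1, 3.13 in Ino4, 2.02 in Rgt1, 10.1 in Sfp1 and 3.75 in Zap1. Sfp1 stood second here, with an interval of 7.05 to 13.9.

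ILV3 (YJR016C, chromosome X), for the dehydratase, held 191 insertions in the Leu3 library, against 9 in Eds1, 5 in Ino4, 2 in Rgt1, 27 in Sfp1 and 6 in Zap1. Its Leu3 level was 25.3 per 10000 (21.8 to 29.1), against 2.93 in Eds1, 3.13 in Ino4, 0.672 in Rgt1, 7.55 in Sfp1 and 3.75 in Zap1. The order of the libraries at ILV3 again had Leu3 first and Sfp1 second.

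ILV6 (YCL009C, chromosome III), for the regulatory subunit, held 6 insertions in the Leu3 library, against 1 in Eds1, 1 in Ino4, 1 in Rgt1, 2 in Sfp1 and 1 in Zap1. All 6 levels, 0.794 per 10000 in Leu3 and between 0.326 (Eds1) and 0.627 (Ino4) in the others, had overlapping intervals.

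ILV1 (YER086W, chromosome V), for threonine deaminase, held 0 insertions in the Leu3 library, which allows a level of up to 0.397 per 10000 (3 insertions of 75550), against 1 in Eds1, 0 in Ino4, 0 in Rgt1, 6 in Sfp1 and 0 in Zap1. The 6 Sfp1 insertions were 1.68 per 10000 (0.616 to 3.65).

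**Figure D1:**
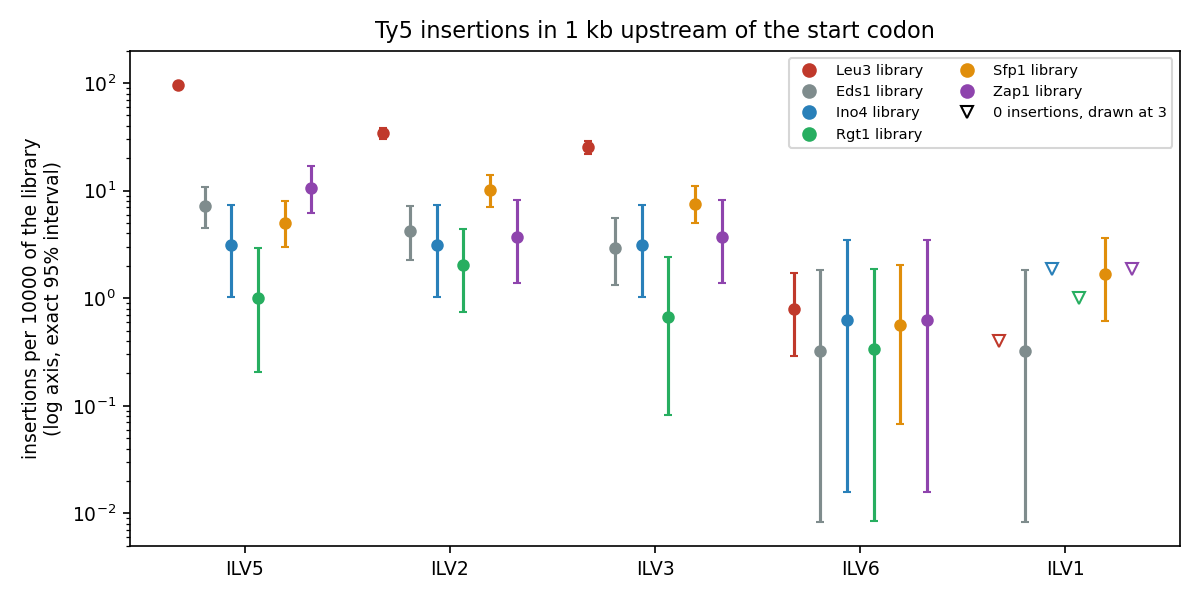
Ty5 insertions per 10000 of the library (log axis) in the 1 kb upstream of each gene, 1 point per library, with exact 95% intervals of the count; an open triangle marks 0 insertions and is drawn at the level of 3. The Leu3 point lies above every other library at ILV5 (95.4), ILV2 (34.0) and ILV3 (25.3); at ILV6 it is also the highest (0.794) but its interval overlaps the other 5.

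Each window of the Leu3 library was tested against the other 5 libraries pooled with Fisher's exact test (two-sided), adjusted by the Benjamini-Hochberg method over all 6002 windows, and called enriched at an adjusted p under 0.05 with the higher share in Leu3. ILV5, ILV2 and ILV3 were enriched, 3 of the 5 genes, where 3.32% of all windows were. At ILV5 the Leu3 share was 18.8 times that of the pool (95% interval 14.6 to 24.7, adjusted p = 1.7e-226 by Fisher's exact test), with 95.4 against 5.07 insertions per 10000. At ILV2 it was 6.61 times (5.02 to 8.80, adjusted p = 7.9e-53 by the same exact test), and at ILV3 6.61 times (4.81 to 9.25, adjusted p = 3.8e-39, exact test). Without the Sfp1 library in the pool the ratio was 10.5 (7.17 to 15.9) at ILV2 and 10.6 (6.82 to 17.4) at ILV3, and 18.8 at ILV5. ILV5 ranked 12 of all 6002 windows by p, ILV2 43 and ILV3 54.

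ILV6 did not pass the test. Its ratio was 1.70 (0.454 to 6.35, adjusted p = 0.859, Fisher's exact test), an interval that leaves room for no difference and for a several-fold one at this depth. ILV1, with 0 against 7 insertions, had a ratio of 0 with an upper limit of 1.18 (adjusted p = 0.351, Fisher's exact test). So 0 of the 5 genes were depleted in Leu3, where 2.82% of all windows were. The median ratio of the 5 genes was 6.61, against 0.764 over the 5860 windows with an insertion in the pool.

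**Figure D2:**
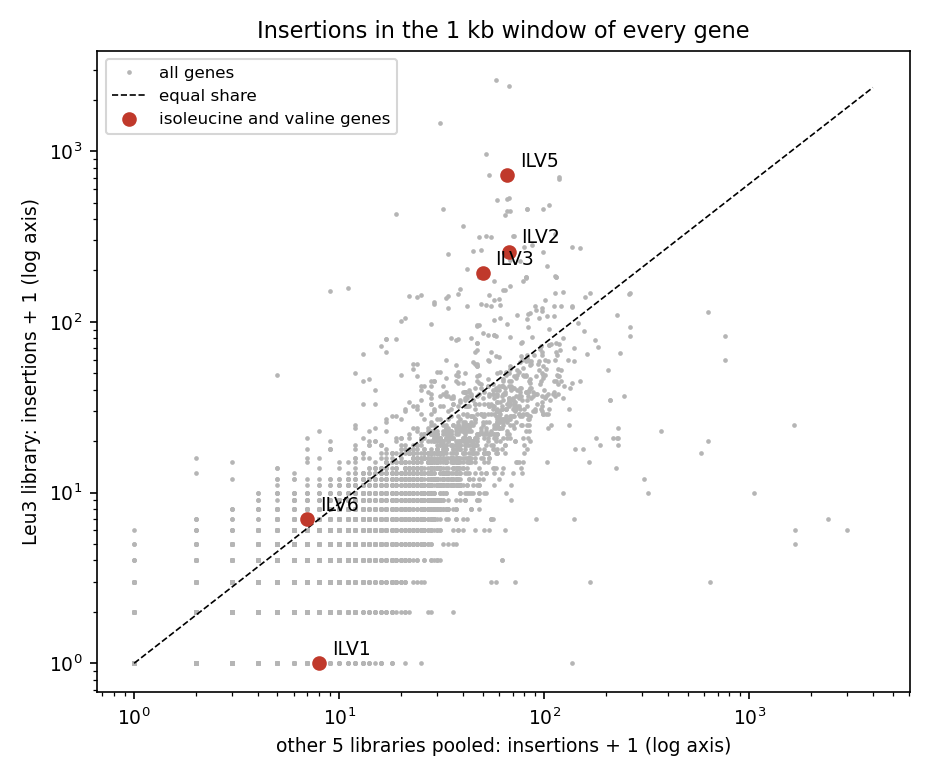
Insertions plus 1 in the 1 kb window of each of 6002 genes (grey), the Leu3 library upward and the other 5 libraries pooled across (both log axes); the dashed line marks an equal share of both. ILV5 (721 against 65), ILV2 (257 against 66) and ILV3 (191 against 49) lie above the line, ILV6 (6 against 6) lies near it and ILV1 (0 against 7) on the lower edge.

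These counts depend on what counts as one insertion. The Leu3 library lists many positions more than once (75550 insertions on 59912 positions), and so does the Rgt1 library (29776 on 19524). At ILV5 the 721 Leu3 insertions fell on 272 distinct positions, against 65 on 63 in the other 5 libraries. With each distinct position counted once per library, the ratio was 8.30 (6.29 to 11.1) at ILV5, 4.74 (3.49 to 6.52) at ILV2 and 3.85 (2.68 to 5.58) at ILV3, and all 3 stayed enriched. With all positions lying within 5 bp of a neighbour joined and counted once, the 721 insertions became 36, and no call was left: the ratio was 1.53 (0.972 to 2.38) at ILV5, 1.33 (0.786 to 2.21) at ILV2 and 1.02 (0.499 to 1.97) at ILV3. Joining chains of neighbouring positions shortens dense stretches most, and with it 8 of 6002 windows were called enriched, against 199.

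The lines of the Leu3 file pass through the chromosomes 5 times. The sources used here do not say what a run stands for, and runs were not taken for replicates. Every run held insertions upstream of ILV5, between 74.6 and 145 per 10000 insertions of the run, of ILV2, between 28.2 and 45.1, and of ILV3, between 20.1 and 29.5. ILV6 had insertions in 4 of the 5 runs, 2.26 per 10000 at most, and ILV1 in none. At ILV5, 151 of the 272 Leu3 positions were found in more than 1 run, at ILV2 57 of 148 and at ILV3 41 of 94, against 7338 of 59912 in the whole library. The whole library is not matched to these promoters in density of insertions, and windows of like density were not compared. Leaving out 1 run at a time gave ratios between 17.6 and 20.6 at ILV5.

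Against each of the other libraries alone, ILV5, ILV2 and ILV3 were enriched for Leu3 in all 15 comparisons, out of 25 made over the 5 genes. Of all windows, 1.9% were enriched in Leu3 against Eds1, 1.53% against Ino4, 4.12% against Rgt1, 2.18% against Sfp1 and 1.68% against Zap1. The lowest ratio at ILV5 was that against Zap1, 8.99 (5.58 to 15.5). At ILV2 and ILV3 the lowest was against Sfp1, 3.38 (2.38 to 4.93) and 3.35 (2.23 to 5.21). ILV1 was depleted in Leu3 against Sfp1, with 0 against 6 insertions (upper limit of the ratio 0.402, adjusted p = 0.0238, Fisher's exact test), where 4.13% of all windows were.

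The share of Leu3 among the insertions of all libraries differed among the 5 promoters. Leu3 insertions made up 91.7% of all insertions of the 6 libraries at ILV5, 79.6% at ILV2, 79.6% at ILV3, 50.0% at ILV6 and 0% at ILV1, where the Leu3 library held 37.1% of all insertions of the genome. Of the 10 pairs of genes, 9 differed in this share at an adjusted p under 0.05 over the 10 pairs (Fisher's exact test). ILV5 differed from ILV2 (p = 5.8e-08, adjusted p = 2.9e-07, exact test) and from ILV3 (p = 9.0e-07, adjusted p = 3.0e-06, exact test). ILV2 and ILV3 were not told apart, with an odds ratio of 0.999 and p = 1.0 in the same exact test. The share also moves with the other libraries. Sfp1 held 36 of the 66 pooled insertions at ILV2, 27 of 49 at ILV3 and 18 of 65 at ILV5. Without the Sfp1 library in the pool, 1 of the 10 pairs was called, and the differences of ILV5 from ILV2 and from ILV3 were not kept. The Leu3 and pooled insertions were then 721 against 47 at ILV5, 257 against 30 at ILV2 and 191 against 22 at ILV3. With insertions of at least 10 reads only, 5 pairs were called, and with each distinct position counted once, 6. The count of 9 pairs was the highest and was kept under 2 of 20 alternatives.

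The Leu3 insertions were unevenly spread over each enriched promoter. At ILV5 they ran over positions 839348 to 840237 of chromosome XII, with a median distance of 358 bp to the start codon (quartiles 314 and 428). The fullest 100 bp, 301 to 400 bp upstream, held 287 of the 721 (39.8%), and 90.2% lay within 500 bp. The other 5 libraries together had a median distance of 424 bp at ILV5, with 67.7% within 500 bp. Only 10 Leu3 insertions fell inside the coding region of ILV5 itself.

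At ILV2 the Leu3 insertions ran over positions 483125 to 483891 of chromosome XIII, farther from the gene, with a median distance of 485 bp. The fullest 100 bp was 401 to 500 bp upstream, with 83 of the 257 (32.3%), and 62.3% lay within 500 bp. The pooled libraries had a median of 417 bp at ILV2, with 65.2% within 500 bp. At ILV3, positions 466260 to 467173 of chromosome X, they lay closer, at a median of 204 bp, with 98 of the 191 (51.3%) between 201 and 300 bp upstream and 97.4% within 500 bp. The pooled libraries had a median of 224 bp at ILV3 and 77.6% within 500 bp. So the medians of Leu3 and of the pool differed by less than 100 bp at each of these promoters. A window moved 500 bp upstream, which leaves out the 500 bp next to the gene, kept 78 Leu3 insertions at ILV5 and 5 at ILV3, where the ratio was 0.530 (0.152 to 1.51) and the call was lost.

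**Figure D3:**
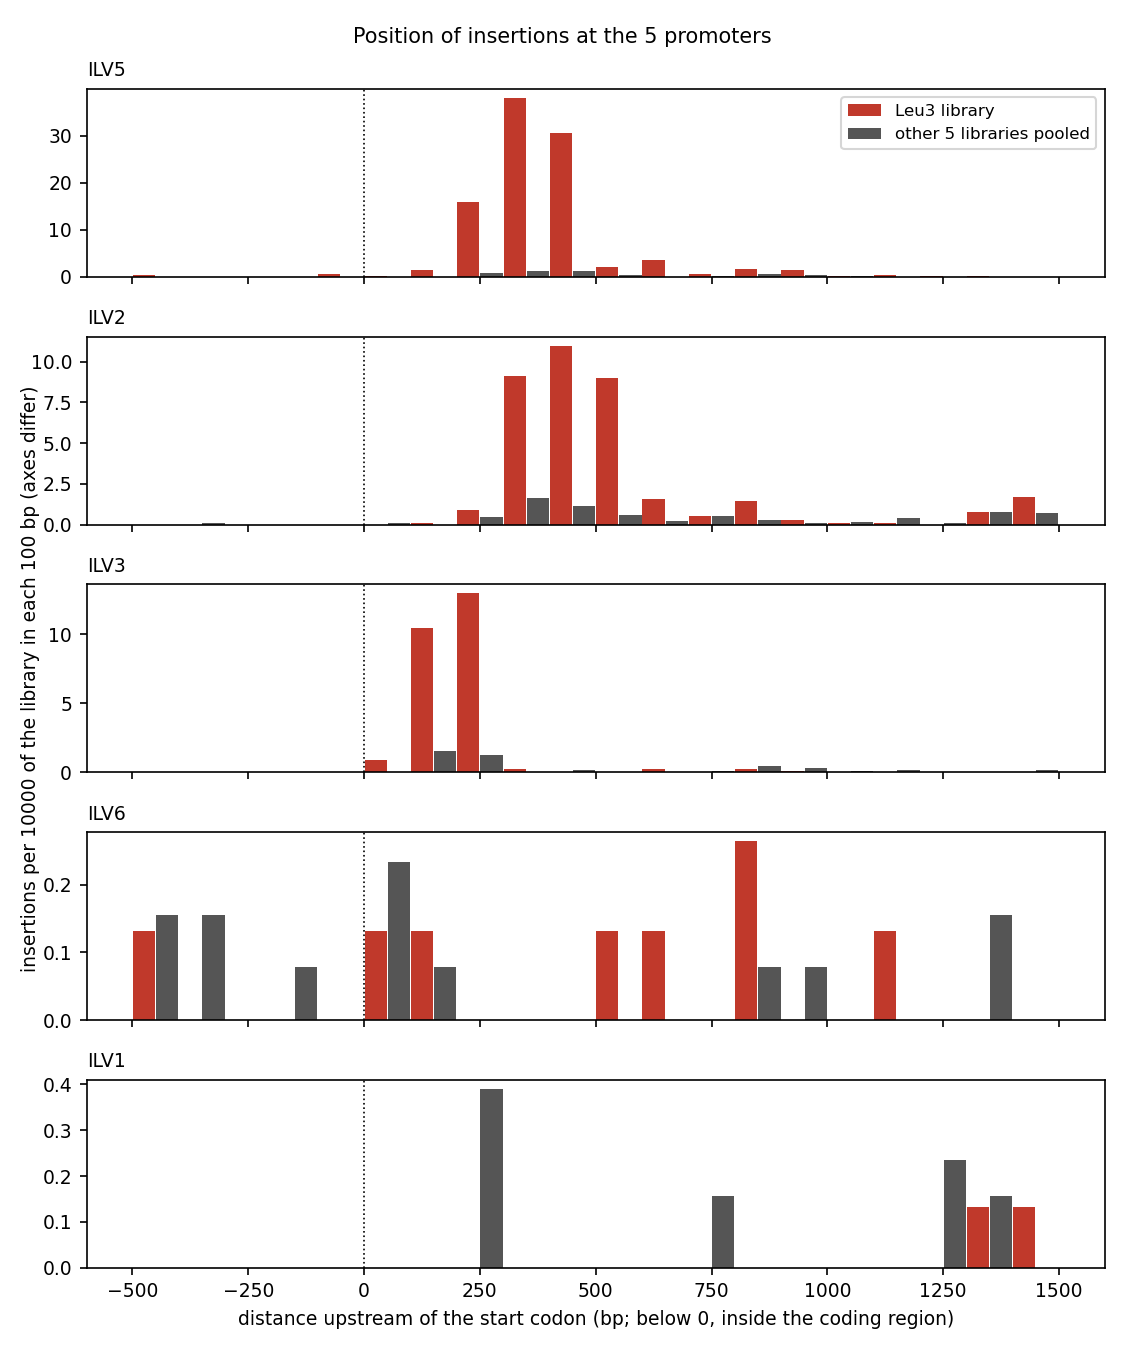
Insertions per 10000 of the library in each 100 bp around the 5 start codons, the Leu3 library (red) drawn beside the other 5 libraries pooled (grey), with distance upstream in bp and a dotted line at the start codon; the vertical axes differ between genes. The tallest Leu3 bars stand 301 to 400 bp upstream at ILV5 (287 insertions), 401 to 500 bp at ILV2 (83) and 201 to 300 bp at ILV3 (98), and no Leu3 bar stands within 1 kb of ILV1.

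At the 3 enriched promoters most insertions lay in the intergenic DNA before the gene and not in the neighbour. ILV3 has a gap of 312 bp to ESS1, a prolyl isomerase gene read in the same direction, and 184 Leu3 insertions lay in it, against 36 in the other 5 libraries. ILV2 has a gap of 722 bp to SPG4, also in the same direction, with 241 Leu3 insertions, against 54. ILV5 shares its gap of 1067 bp with ATG33, a mitophagy gene read the other way, with 722 Leu3 insertions, against 66. As the windows of ILV5 and ATG33 share these insertions, ATG33 had nearly the same ratio, 18.9, and the data do not tell which of the pair they belong to. Per kb of gap the Leu3 library held 677 insertions before ILV5, 590 before ILV3 and 334 before ILV2.

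The gaps before the remaining genes were nearly empty. ILV6 lies 147 bp from STP22, an ESCRT-I gene, and this gap held 1 Leu3 insertion, against 3 in the other 5 libraries. ILV1 shares 336 bp with the divergent YER085C, and 0 Leu3 insertions lay there, against 5, all of them from Sfp1. With the window cut at the next coding region, the ratio of ILV6 was 0.566 (0.0108 to 7.05), on the other side of 1 and, as before, not past the test.

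The reads behind an insertion also varied. The median Leu3 insertion had 104 reads at ILV5, 46 at ILV3, 14 at ILV2 and 7 at ILV6, against 18 over the whole library. Reads come from PCR and do not count cells.

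Among the TFs other than Leu3, Sfp1 was enriched at ILV1, and Eds1, Ino4, Rgt1 and Zap1 were enriched at 0 of the 5 genes, where 0.9%, 0.983%, 1.55% and 0.883% of all windows were. Against the other 5 libraries pooled, which include Leu3, Sfp1 was enriched at ILV1, 1 of 5, where 3.87% of all windows were, with 6 against 1 insertions, a ratio of 28.2 (3.42 to 1297) and adjusted p = 0.00521 (Fisher's exact test). The call was not kept without Leu3 in the pool (ratio 15.5, adjusted p = 0.0675, exact test) or with insertions of at least 2 reads only (17.4, adjusted p = 0.0849, exact test). The 6 insertions lay at 6 positions between 327689 and 328257 of chromosome V, 5 of them 201 to 300 bp upstream. Within the Sfp1 library, the ILV1 window held 1.5 times the median window and 0.974 times the mean window. The window of the divergent YER085C shares 5 of these insertions and was called enriched for Sfp1 too (adjusted p = 0.00507, Fisher's exact test). The data do not tell which of the pair they belong to. ILV5, ILV2 and ILV3 were depleted in Eds1, Ino4, Rgt1 and Zap1 (3 of 5 each, where 1.48%, 1.32%, 5.76% and 1.12% of all windows were), and ILV5 and ILV2 in Sfp1 (1.93%). The pool here holds the Leu3 insertions, and without them Eds1, Ino4 and Zap1 were depleted at 0 of the 5 genes, where 0.4%, 0.55% and 0.55% of all windows were. Within each of these libraries, the 3 windows lay above the median window, between 2 (Rgt1 at ILV3) and 17 times it (Zap1 at ILV5). Against the mean window, Rgt1 was lower at ILV3 (0.438 times) and at ILV5 (0.657 times).

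With Leu3 left out of the pool, a comparison added after the data were seen, Sfp1 was enriched at ILV2 and ILV3, 2 of 5, where 2.38% of all windows were. ILV2 held 36 Sfp1 insertions, against 30 in the 4 others, a ratio of 3.10 (1.86 to 5.22, adjusted p = 0.000499, exact test). ILV3 held 27, against 22, a ratio of 3.17 (1.74 to 5.85, adjusted p = 0.00512, exact test). Over all windows the median ratio of Sfp1 was 1.29. Neither call was kept with distinct positions only (2.32, adjusted p = 0.0780, and 2.64, adjusted p = 0.0659, exact tests), and that of ILV3 was lost without the Rgt1 library (2.37, adjusted p = 0.197, exact test). Of 17 alternatives, 5 lost the call at ILV2 and 7 lost that at ILV3. Insertions of at least 10 reads were among them at both genes (adjusted p = 0.0625 and 0.373, exact tests). Rgt1 was depleted at ILV3 and ILV5 in this comparison, 2 of 5 where 5.5% of windows were, with 2 insertions at ILV3 (ratio 0.141) and 3 at ILV5 (0.160), beside a median Rgt1 ratio of 0.236 over all windows. Zap1 at ILV5, with 17 insertions against 48, had a ratio of 2.48 (1.34 to 4.39) and was not called (adjusted p = 0.143, exact test), where 0.716% of windows were enriched.

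Other genes of branched-chain amino acid synthesis were enriched for Leu3 too, 5 of the 7 examined, where 3.32% of all windows were. The ratio was 83.2 (58.0 to 124) at LEU1, isopropylmalate isomerase, and 40.4 (25.3 to 68.9) at OAC1, the mitochondrial carrier that exports isopropylmalate. It was 10.3 (6.57 to 16.7) at BAT1, the mitochondrial branched-chain aminotransferase, 9.64 (7.60 to 12.4) at LEU4 and 3.88 (2.84 to 5.37) at LEU9, the isopropylmalate synthases. BAT2, the cytosolic aminotransferase, held 39 Leu3 insertions, against 57, a ratio of 1.16 (0.752 to 1.78, adjusted p = 0.919, exact test). LEU2, which is deleted in BY4741, held 0 insertions in all 6 libraries and could not be called.

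Of 6 genes that make or use threonine, the substrate of Ilv1, HOM2 (aspartate semialdehyde dehydrogenase) was enriched, with 225 Leu3 insertions, against 75 (ratio 5.09, 3.90 to 6.70, adjusted p = 1.2e-38, exact test). That is 1 of 6, where 3.32% of all windows were enriched. The call at HOM2 was not kept with the window cut at the next coding region or moved 500 bp upstream. HOM3, HOM6, THR1, THR4 and CHA1, a catabolic threonine deaminase, did not pass, with ratios between 0.212 (THR4) and 2.26 (THR1).

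**Figure D4:**
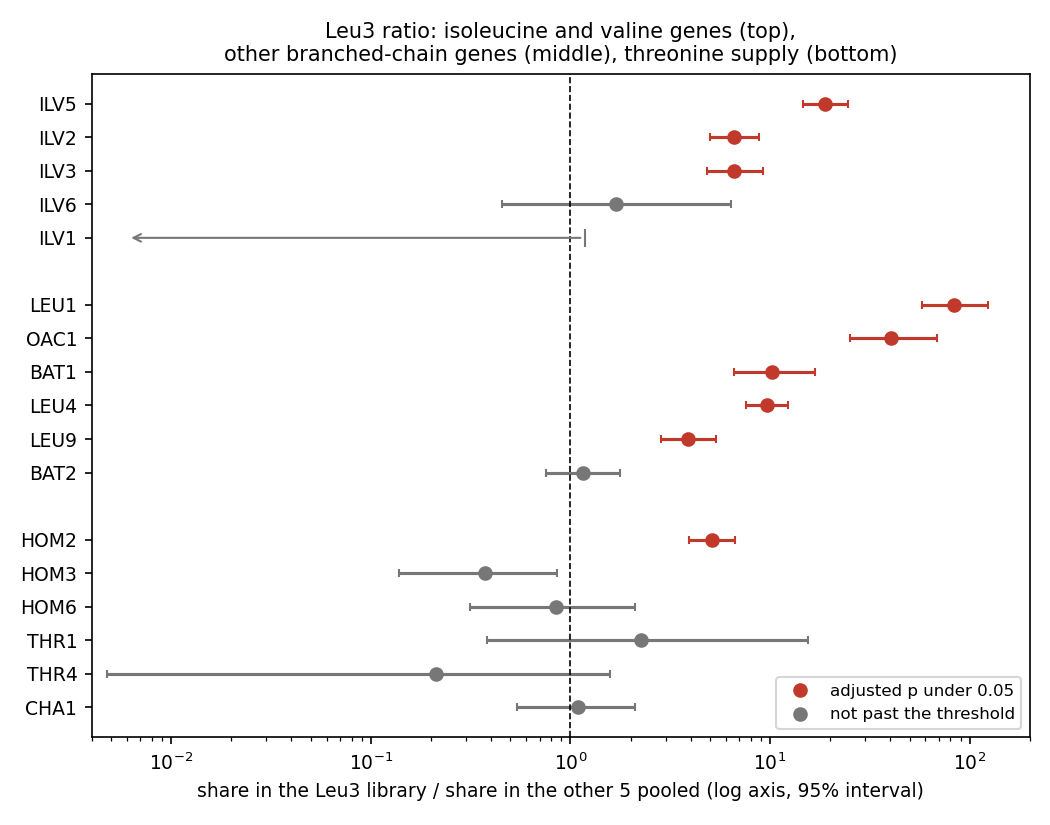
Share of insertions in the Leu3 library over the share in the other 5 libraries pooled (log axis) for the 1 kb window of each gene, with 95% intervals; red points passed the test, grey points did not, the arrow marks ILV1 with 0 Leu3 insertions below its upper limit of 1.18, and LEU2 (0 insertions in every library) is not drawn. ILV5 lies at 18.8 and ILV2 and ILV3 at 6.61, below LEU1 (83.2) and OAC1 (40.4).

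The windows most like the enriched genes over the 6 libraries were found by the distance between their levels, on the scale of log2 of insertions per 10000 plus 0.1, among 2468 windows with at least 20 insertions. Nearest to ILV5 were MSN2, a stress TF gene (distance 1.52, 727 Leu3 insertions), and BAP2, a branched-chain amino acid permease (1.70, 446). Nearest to ILV2 were HER1 (1.03, 316) and LEU9 (1.27, 135). Nearest to ILV3 were MRK1, a glycogen synthase kinase 3 homolog (1.16, 124), and again HER1 (1.32). The windows with the lowest p for Leu3 were LEU1, QCR6 (2612 against 57 insertions), YFR035W-A (2414 against 66) and YBL029C-A (960 against 51), which were enriched, and HXT4, a hexose transporter gene, which was depleted (5 against 1674).

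**Figure D5:**
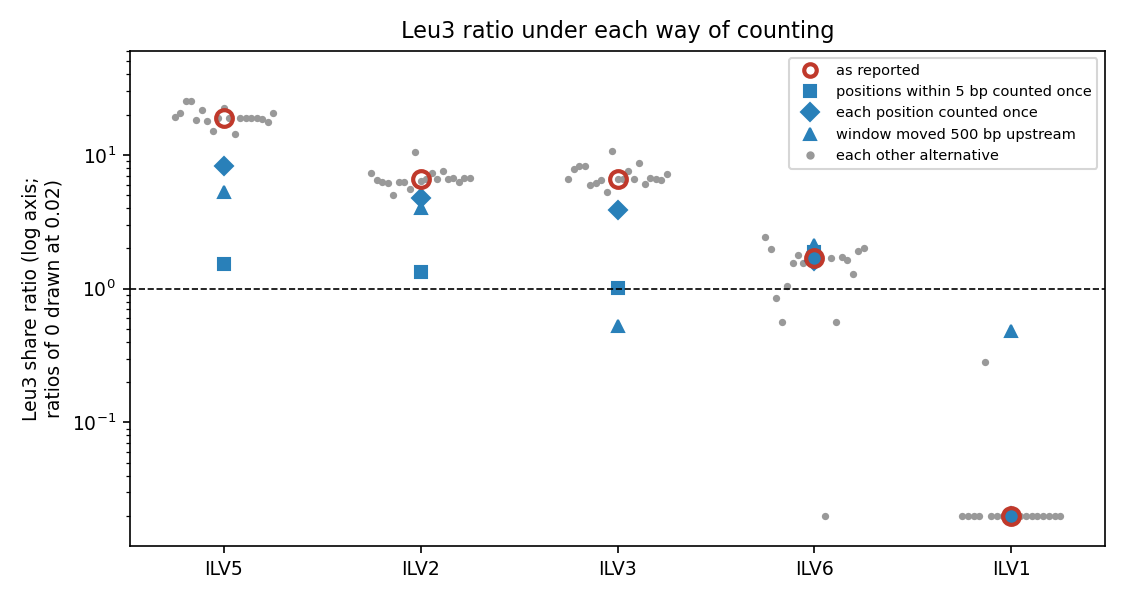
Leu3 share ratio (log axis) of each gene as reported (open red circle) and under each alternative way of counting (grey, and blue for 3 named ones); ratios of 0 are drawn at 0.02. ILV5, ILV2 and ILV3 stay above 1 under all alternatives drawn but 1, the window moved 500 bp upstream for ILV3 (0.530), and come down to 1.53, 1.33 and 1.02 when positions within 5 bp are joined.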

How the data were processed

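Each of the 6 libraries came as 1 file of insertions, without a header, giving chromosome, position and reads. The deposited values are counts of reads per insertion, with no normalization by the authors. Per the labels, the DNA beside each Ty5 was cut with 3 enzymes, self-ligated and amplified by inverse PCR. Per the submitters' processing notes the aligner was Novoalign, with no version given in the sources used here. Positions are taken to be those of genome release R61, which neither the labels nor the files name. Start codons came from the RefSeq gene table of release R64, whose coordinates are not printed. In the 100 kb on each side of the 5 genes, the shift that left the fewest bins of insertions in coding regions was between -20 and 20 bp, and no shift was applied.

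Here 1 line was counted as 1 insertion, whatever its reads, and insertions were counted in the 1000 bp before each start codon. Shares were compared by two-sided Fisher's exact tests (scipy 1.17.1), with Benjamini-Hochberg adjustment over 6002 windows, or over 10 pairs of genes. Ratios carry conditional exact 95% intervals. With 1 library per TF, the tests compare libraries, not conditions. The procedure was tested on simulated data of independent counts. These held no repeated positions and no variation between clones, so that test does not cover either. The members and gene lists were chosen with earlier results of these data known. Named genes are the 5 members, 2 lists (other branched-chain genes and threonine genes), neighbours with an overlapping window or the next coding region, the 2 nearest windows of each member with at least 20 insertions, and the 5 windows of lowest p for Leu3. Alternatives changed the definition of an insertion, the window, the pool, the totals, the depth, the filter and the side of the test. Promoter sequences were not analysed here, so the planned motif search was not run.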

Additional observations from a re-analysis of the deposited data

How the results depend on the processing

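The 3 members enriched for Leu3 stayed 3 under 21 of 23 alternatives, were 2 with the window moved 500 bp upstream (ILV3 was lost), and all counts fell when positions within 5 bp were joined: to 0 for the members, 2 for the other branched-chain genes, 0 for the threonine genes, 8 for all windows (199 otherwise), 0 of 25 comparisons with single libraries, 0 for other TFs and 0 of 10 pairs of genes. With every library thinned to the smallest total, 110 windows, 0 genes for other TFs and 0 pairs were called, and ILV6 had a ratio of 0; fewer insertions were then tested. With the window moved 500 bp upstream, 9 of the 25 comparisons, 4 pairs, 0 threonine genes and 0 genes for other TFs were called, and the ratio was 0.530 at ILV3 for Leu3 and 0.587 at ILV1 for Sfp1. With the window cut at the next coding region, chosen after seeing the data, 0 threonine genes were called. The ILV6 ratio, never past the test, fell below 1 with that window (0.566), with the window moved 500 bp downstream (0.566) and with 500 bp only (0.849). The pairs called were 5 with insertions of at least 10 reads and 1 without Sfp1. The Sfp1 call at ILV1 left 0 genes for other TFs with insertions of at least 2 or 10 reads, with the widened window and with only windows of at least 10 insertions, and 2 genes (ILV2 and ILV3) took its place without Leu3 in the pool. Beyond what an alternative removes by construction, the cause was not tested. No paired analysis was possible because each TF has 1 library and the labels carry no replicate numbers. Depth limits ILV6 and ILV1, with 12 and 7 insertions over the 6 libraries.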
